A study of Arabidopsis thaliana with 16 samples.

Results

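JRG21, AT3G57020, AT3G28220, AT2G43620, AT2G29360, AT1G15010, AT1G65490 and AT1G51090 are 8 of the 13286 Arabidopsis thaliana genes that could be paired with a probe set of their own on the ATH1 array. They were chosen by their measured log2 signals, for large rises in far-red light against darkness or under dexamethasone (DEX) in far-red light, so their changes in those comparisons are given as a description and were not tested. Each of the 8 has 1 single-gene probe set here, and all 8 probe sets are of the kind whose name marks them as matching 1 transcript. All 16 arrays came from whole seedlings, 4 days old, in which the mutation fhy3-4 is carried together with the transgene FHY3p:FHY3-GR. The transgene drives, from the gene's own promoter, the transcription factor FHY3 fused to the glucocorticoid receptor domain (GR), which keeps the protein in the cytoplasm until DEX is given. The 4 groups of 4 biological replicates were far-red light with 10 µM DEX for 2 h, far-red light with the ethanol solvent (mock) for 2 h, darkness with DEX and darkness with mock. Mock seedlings therefore had the fusion outside the nucleus, and no line lacking the fusion is among the samples, so a response to the steroid itself cannot be told apart from a response to the entry of FHY3-GR into the nucleus. FHY3 had no probe set that could be named, so the targeted gene is not analysed here.

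Far-red light acts on seedlings through the photoreceptor phytochrome A. FHY3 takes part in that signalling by switching on genes whose products carry phytochrome A into the nucleus. Under mock, with the fusion outside the nucleus, 38.6% of all probe sets were still called in far-red against dark here. Seedlings kept under far-red light open their cotyledons and build up parts of the photosynthetic apparatus, whereas seedlings in darkness elongate. Plants also make enzymes that act on fungal cell walls, on hormones and on small metabolites, and several of the genes here belong to such families. JRG21 is a jasmonate-regulated oxygenase, also known as a jasmonate oxidase of the JOX group, which converts the defence hormone jasmonic acid into a hydroxylated, inactive form. AT2G29360 belongs to the short-chain dehydrogenases that resemble tropinone reductase, AT3G57020 to the family of strictosidine synthase-like proteins, and AT2G43620 to the chitinases, which cut the chitin of fungal walls. AT3G28220 encodes a protein of the TRAF-like family and AT1G51090 a protein with a heavy-metal-associated domain. These families are background knowledge, since the annotation used here gives no roles and names all of the 8 but JRG21 by locus only. No role is given for AT1G15010 and AT1G65490.

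Values are log2 signals, so a difference of 1 is a doubling of the signal. Levels of different probe sets are compared only roughly, as shares of dimmer probe sets, against the lower quartile and in marker sums. Arrays of one group correlated at 0.9956 to 0.9981 over 22746 probe sets, and array medians lay between 6.60 and 6.68. The lower quartiles of the arrays lay between 4.38 and 4.50. Of the genes listed to mark green tissue, 5 of 29 could be measured. The log2 of their summed unlogged signals was 14.86 to 14.91 in far-red DEX and 14.82 to 14.96 in far-red mock. It was 13.67 to 13.89 in dark DEX and 13.49 to 13.74 in dark mock. Of the genes listed to mark roots, 9 of 18 could be measured, with sums of 11.26 to 11.46, 11.15 to 11.51, 11.28 to 11.60 and 10.94 to 11.23 in the same 4 groups. Such a sum mostly follows its brightest gene, which among the root markers was AT5G17820 (mean 10.55 in dark mock and 10.93 in dark DEX). In whole seedlings fewer cells of a type and less RNA per cell cannot be told apart.

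**Figure D1:**
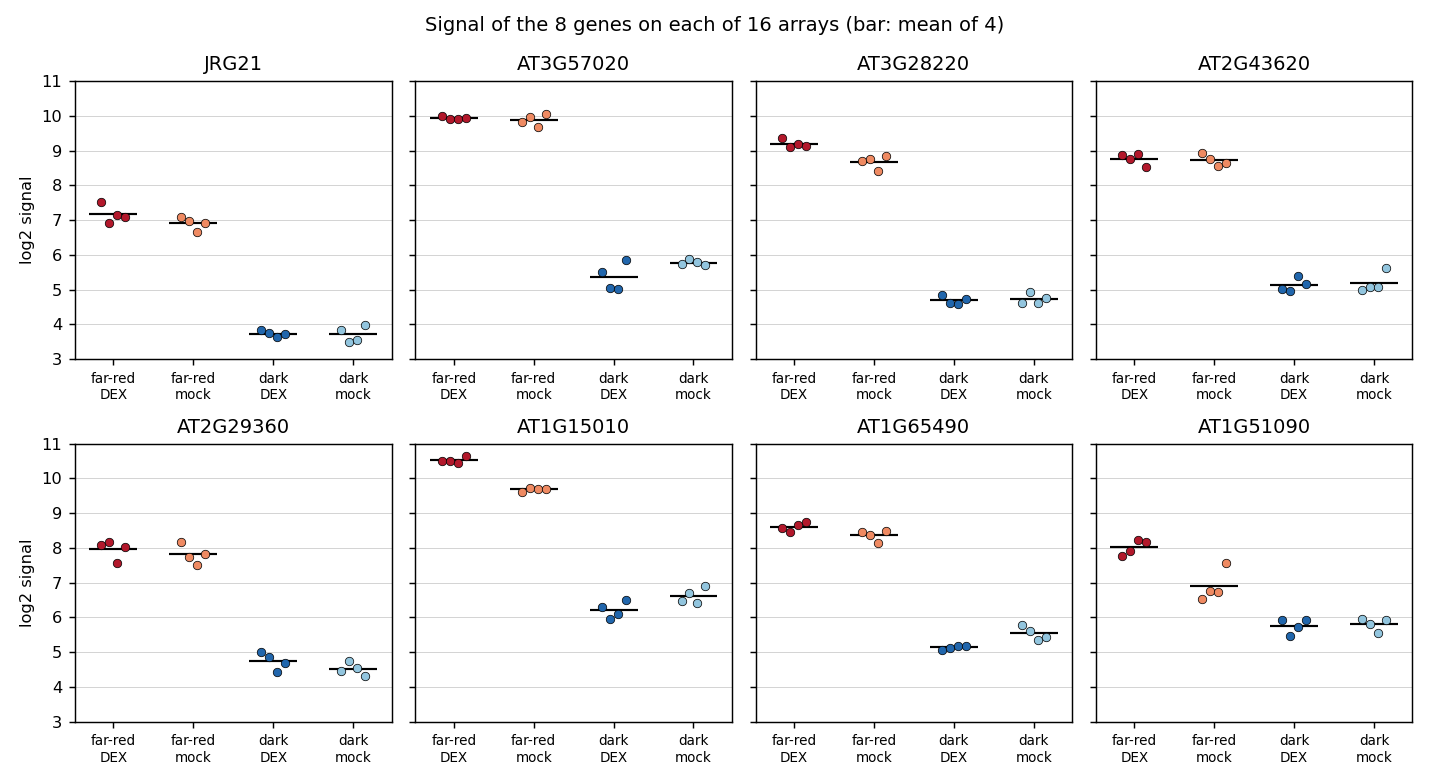
Log2 signal (vertical axis) of the 8 genes on each of the 16 arrays, by group of light and DEX, with a bar at the mean of 4 arrays. In all 8 panels every far-red array lies above every dark array, and AT1G51090 shows the smallest gap under mock.

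All 8 genes had every far-red array above every dark array, with DEX and with mock. Groups were apart in this way, higher in far-red, for 16.1% of all probe sets under mock and 17.4% under DEX, and since light was part of the rule nothing is read from the count. The median log2 change over the 8 genes was 3.55 under DEX and 3.25 under mock, against medians of -0.03 and -0.004 over all probe sets. Ranked by the rise under mock among the 13286 genes, AT3G57020, AT3G28220 and AT2G43620 took ranks 2, 3 and 4, AT2G29360, JRG21 and AT1G15010 ranks 7, 8 and 9, and AT1G65490 rank 12. The other places among the 12 largest rises were held by COR15A, COR15B, COR27, THI2.2 and AT3G15440. AT1G51090 stood at rank 221 under mock and at rank 39 under DEX, and was rank 5 for the rise with DEX in far-red. Signals of the control transcript of ubiquitin at its 3′ end minus its 5′ end, a sign of RNA quality, were 1.13 to 1.24 in far-red mock and 1.26 to 1.28 in dark mock on the log2 scale, which do not overlap. Under DEX they were 1.19 to 1.35 in far-red and 1.15 to 1.25 in dark, which overlap and lie the other way round. The same signals of the control transcripts of actin and GAPDH overlapped between the lights, under mock and under DEX. Their means under mock lay opposite to ubiquitin: 1.41 in far-red and 1.37 in dark for actin, 1.16 and 1.01 for GAPDH. The green-tissue markers all rose in far-red, 5 of 5 under DEX (median 1.14) and under mock (median 1.19). Of the 9 root markers 1 rose and 1 fell under DEX (median -0.02), and 4 rose under mock (median 0.39), AT3G49960 by 1.07. The part of RNA quality and of these tissues in the light changes was not tested.

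JRG21, the jasmonate oxidase gene, had log2 signals of 7.53, 6.91, 7.14 and 7.08 in far-red DEX, 7.10, 6.97, 6.65 and 6.92 in far-red mock, 3.82, 3.74, 3.65 and 3.71 in dark DEX, and 3.83, 3.48, 3.54 and 3.98 in dark mock. The light groups were far apart, while DEX and mock overlapped in either light. Far-red minus dark was 3.44 ± 0.12 under DEX and 3.20 ± 0.12 under mock (SE from the fit over 16 arrays), folds of 10.8 and 9.18. The dark signals were dim: only 10.5% of probe sets had a lower mean in dark DEX and 9.79% in dark mock. No detection call comes with the values, so these folds are lower limits if the dark signals did not rise above background. JRG21 thus ran, from high to low, far-red DEX, far-red mock, dark DEX, dark mock, with neighbours in that order overlapping except between the lights.

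AT2G29360, the tropinone reductase-like gene, gave 8.09, 8.16, 7.56 and 8.02 in far-red DEX, 8.18, 7.74, 7.52 and 7.84 in far-red mock, 5.0, 4.85, 4.42 and 4.69 in dark DEX, and 4.45, 4.76, 4.56 and 4.30 in dark mock. Its far-red minus dark change was 3.22 ± 0.15 under DEX and 3.30 ± 0.15 under mock, the 1 gene of the 8 with the smaller value under DEX. The difference of 0.14 ± 0.15 between far-red DEX and far-red mock was below the SD of 0.27 to 0.28 within these groups.

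AT3G57020, the strictosidine synthase-like gene, gave 9.98, 9.90, 9.90 and 9.93 in far-red DEX and 9.83, 9.95, 9.69 and 10.06 in far-red mock. The dark arrays gave 5.51, 5.04, 5.01 and 5.85 with DEX and 5.74, 5.87, 5.79 and 5.70 with mock. The far-red groups coincided, whereas replicates 1, 2 and 3 of dark DEX lay below all dark mock arrays and replicate 4 lay among them. The change in far-red minus dark was 4.58 ± 0.13 under DEX (23.8-fold) and 4.11 ± 0.13 under mock (17.3-fold). In far-red light its signal exceeded that of 90.6% of probe sets with DEX and 90.3% with mock.

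AT2G43620, the chitinase gene, gave 8.88, 8.75, 8.90 and 8.51 in far-red DEX, 8.92, 8.77, 8.55 and 8.63 in far-red mock, 5.02, 4.96, 5.39 and 5.15 in dark DEX, and 4.98, 5.08, 5.07 and 5.63 in dark mock. Within each light the DEX and mock arrays were mixed. Between far-red and dark the change was 3.63 ± 0.13 under DEX and 3.53 ± 0.13 under mock, folds of 12.4 and 11.5.

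AT3G28220, the TRAF-like gene, gave 9.36, 9.09, 9.18 and 9.12 in far-red DEX and 8.71, 8.75, 8.42 and 8.83 in far-red mock. All 4 DEX arrays lay above all 4 mock arrays in far-red. In darkness the signals were 4.85, 4.62, 4.58 and 4.72 with DEX and 4.60, 4.92, 4.61 and 4.75 with mock, which overlap. Far-red minus dark was 4.50 ± 0.10 under DEX and 3.96 ± 0.10 under mock, folds of 22.6 and 15.5.

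AT1G51090, with the heavy-metal-associated domain, gave 7.76, 7.92, 8.23 and 8.19 in far-red DEX and 6.52, 6.76, 6.73 and 7.56 in far-red mock. Replicate 4 stood highest of the far-red mock arrays, yet below the lowest DEX array. The dark signals, 5.93, 5.46, 5.74 and 5.94 with DEX and 5.96, 5.82, 5.55 and 5.92 with mock, overlapped. Light changed it by 2.26 ± 0.17 under DEX and 1.08 ± 0.17 under mock, folds of 4.78 and 2.12; without far-red mock replicate 4 the mock value was 0.86.

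AT1G15010 gave 10.50, 10.50, 10.43 and 10.64 in far-red DEX, 9.62, 9.74, 9.68 and 9.70 in far-red mock, 6.30, 5.96, 6.10 and 6.52 in dark DEX, and 6.49, 6.71, 6.41 and 6.90 in dark mock. Of all 8 genes it had the tightest far-red mock group, with an SD of 0.05 (n = 4), and a far-red DEX group that lay wholly above it. The light change was 4.30 ± 0.11 under DEX (19.7-fold) and 3.06 ± 0.11 under mock (8.33-fold).

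AT1G65490 gave 8.58, 8.46, 8.67 and 8.75 in far-red DEX, 8.45, 8.36, 8.15 and 8.50 in far-red mock, 5.06, 5.12, 5.19 and 5.18 in dark DEX, and 5.78, 5.61, 5.34 and 5.43 in dark mock. The far-red groups overlapped slightly, and the dark DEX arrays all lay below the dark mock arrays. Far-red minus dark was 3.47 ± 0.09 under DEX and 2.83 ± 0.09 under mock, folds of 11.1 and 7.09.

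The order of the 4 groups was far-red DEX, far-red mock, dark mock and dark DEX, from high to low, for 6 of the genes. JRG21 and AT2G29360 were the exceptions, with dark mock last, below dark DEX by differences of 0.02 and 0.22. The dark groups overlapped for all 8 genes but AT1G65490, and the order of the dark means of JRG21, AT3G28220, AT1G51090 and AT2G43620 turned on leaving out single arrays. For every gene the far-red group with the lower mean was apart from the dark group with the higher mean, by between 1.08 for AT1G51090 and 4.11 for AT3G57020.

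**Figure D2:**
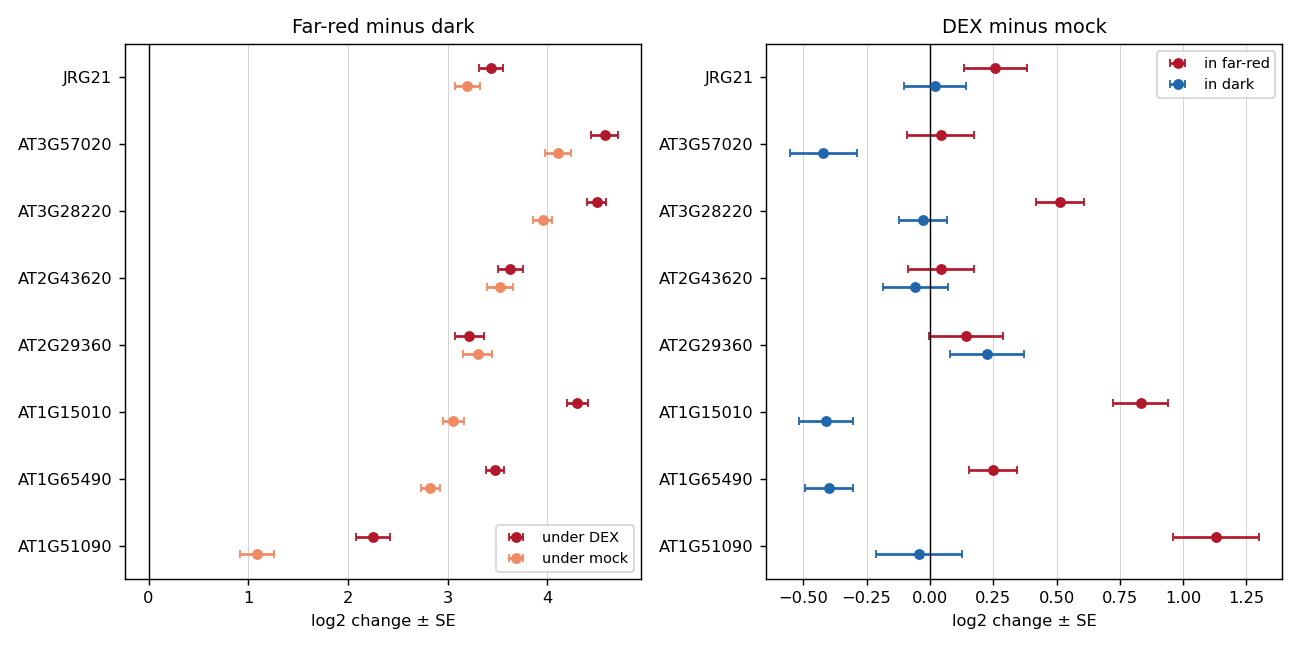
Log2 change ± SE of each gene, for far-red minus dark (left, under DEX and under mock) and for DEX minus mock (right, in far-red and in dark). AT1G51090 and AT1G15010 have the largest DEX changes in far-red, 1.13 and 0.83, while AT3G57020, AT1G15010 and AT1G65490 have dark DEX changes near -0.4.

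DEX in far-red light belonged to the rule, and its values are again a description. All 8 genes had a positive change with all arrays in the fit (without far-red mock replicate 3, AT3G57020 was at -0.02 and AT2G43620 at -0.01), with a median of 0.25 against -0.02 over all probe sets. In 3 of them the DEX arrays lay wholly above the mock arrays, which held for 3.14% of all probe sets: AT1G51090 (1.13 ± 0.17, 2.19-fold), AT1G15010 (0.83 ± 0.11, 1.78-fold) and AT3G28220 (0.51 ± 0.10, 1.43-fold). The change of AT1G51090 was 1.35 without far-red mock replicate 4. The arrays overlapped for JRG21 (0.26 ± 0.12), AT1G65490 (0.25 ± 0.09), AT2G29360 (0.14 ± 0.15), AT2G43620 (0.04 ± 0.13) and AT3G57020 (0.04 ± 0.13). The last pair, among the 4 largest rises of all genes in far-red against dark under mock, thus had DEX changes smaller than their standard errors in far-red. Summed root and green-tissue marker signals overlapped between far-red DEX and far-red mock.

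DEX in darkness was not a comparison of the rule and was tested, over all 22746 probe sets. Both dark groups are, however, the lower arms of the light comparisons that chose genes: choosing on low dark DEX signals favours falls here, and choosing on low dark mock signals favours rises. The adjusted p-values of the 8 genes are therefore not independent of how they were chosen. AT1G65490 fell, with a log2 change of -0.40 ± 0.09 (fold 0.758, limma adjusted p = 0.0107). AT1G15010 fell as well, by 0.41 on the log2 scale (SE 0.11, fold 0.752, limma adjusted p = 0.0246). AT1G65490 was lower in 4 of 4 dark DEX arrays than in any dark mock array, a separation that 5.60% of all probe sets showed, while the arrays of AT1G15010 overlapped. So 2 of the 8 were called, both lower, where 5.90% of all probe sets were called and 3.56% were called lower. AT3G57020 had a change of -0.42 ± 0.13 that was not called (limma adjusted p = 0.0689).

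The 5 remaining genes were not called for DEX in dark. Their log2 changes were 0.02 for JRG21 (95% interval -0.24 to 0.28), -0.03 for AT3G28220 (-0.23 to 0.17), -0.04 for AT1G51090 (-0.40 to 0.31), -0.06 for AT2G43620 (-0.33 to 0.21) and 0.22 for AT2G29360 (-0.08 to 0.53). The far-red change of AT1G51090 was 1.13, and its difference from the dark change was not tested because far-red DEX had chosen the gene. The median over the 8 genes was -0.05, against 0.01 over all probe sets, and 3 of 8 had an unadjusted p under 0.05.

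Those calls rested on few arrays. The call of AT1G15010 was lost on leaving out dark DEX replicate 2 (limma adjusted p = 0.107) or 3 (0.0793) or dark mock replicate 2 (0.0638) or 4 (0.112), and when far-red arrays were kept out of the fit (0.0998). AT1G65490 was not called without dark mock replicate 1 (limma adjusted p = 0.0512), and AT3G57020 was called without dark DEX replicate 4 (-0.59, limma adjusted p = 0.00136) and with array weights (0.0447). Root markers moved between the same groups. The log2 of their summed signal was 11.28 to 11.60 in dark DEX and 10.94 to 11.23 in dark mock, and mostly follows AT5G17820. Of the 9, 3 rose, the root peroxidase genes AT3G49960 (0.66), AT1G30870 (0.62) and AT5G17820 (0.37). The ubiquitin 3′ minus 5′ signal was 1.15 to 1.25 in dark DEX and 1.26 to 1.28 in dark mock. For actin (means 1.36 and 1.37) and GAPDH (0.94 and 1.01) the same 2 groups overlapped. The part of root tissue or of RNA quality in the dark DEX changes was not tested.

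Set side by side, the DEX changes in far-red and in dark share no array. All 8 were positive in far-red and 6 were negative in dark. The 2 genes called in dark were among these 6, AT1G15010 (0.83 and -0.41) and AT1G65490 (0.25 and -0.40). Far-red rises and low dark signals both entered the choice of the genes, so nothing is read from the signs. For AT1G15010 the far-red change minus the dark change was 1.24 ± 0.15, for AT1G51090 1.17 ± 0.24 and for AT1G65490 0.65 ± 0.13. It was 0.54 ± 0.14 for AT3G28220, 0.46 ± 0.19 for AT3G57020 and 0.24 ± 0.18 for JRG21. AT2G43620 (0.10 ± 0.18) and AT2G29360 (-0.08 ± 0.21) lay within 1 SE of 0. By arithmetic the same numbers are the gain of the light change under DEX over that under mock.

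Genes of the same families were then examined, leaving out the 8 themselves. The lists were drawn up with earlier results of these data known, so their counts are no independent check. In far-red against dark, 38.6% of all probe sets were called under mock (17.8% higher, 20.8% lower) and 39.7% under DEX (17.5% higher, 22.2% lower), so a call by itself is common. The light comparisons under mock and under DEX share no array.

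The tropinone reductase-like relatives of AT2G29360 gave the clearest run of rises. Of 12 measured relatives, 6 rose in far-red under mock and none fell (median 0.47), and 5 rose and 2 fell under DEX (median 0.18). The same 5 rose in both, against 13.3% of all probe sets that were called higher in both. All of the 6 lie in the run of locus tags beginning AT2G29 that holds AT2G29360 itself, where 10 relatives were measured. The list took in the genes around AT2G29360 by plan. AT2G29340 rose by 2.13 ± 0.11 under mock (limma adjusted p = 4.1e-12) to a signal of 8.20, against 6.07 in dark mock. AT2G29290 rose by 1.94 ± 0.07 (4.46e-14), AT2G29320 by 0.83 ± 0.09 (1.95e-07) and AT2G29300 by 0.80 ± 0.09 (3.02e-07). TRI, the tropinone reductase that the family is named for here, had a change of -0.18 ± 0.08 under mock that was not called (limma adjusted p = 0.0806). Its signals were dim, 3.80 in far-red mock and 3.98 in dark mock, below the lower quartile of the arrays. Under DEX TRI fell by 0.30 (limma adjusted p = 0.0041). None of the 12 was called for DEX in far-red, where 1.04% of all probe sets were called, and 2 rose with DEX in dark, where 2.34% of all probe sets did. AT2G29290 rose by 0.35 ± 0.07 in that comparison (limma adjusted p = 0.00512), and AT1G07440 by 0.39 ± 0.10 (limma adjusted p = 0.0276, but 0.113 without dark DEX replicate 2). TRI and AT1G07440 were chosen after their values were seen. Neighbouring relatives may share sequence with each other, and how far their probes cross-react was not tested.

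**Figure D3:**
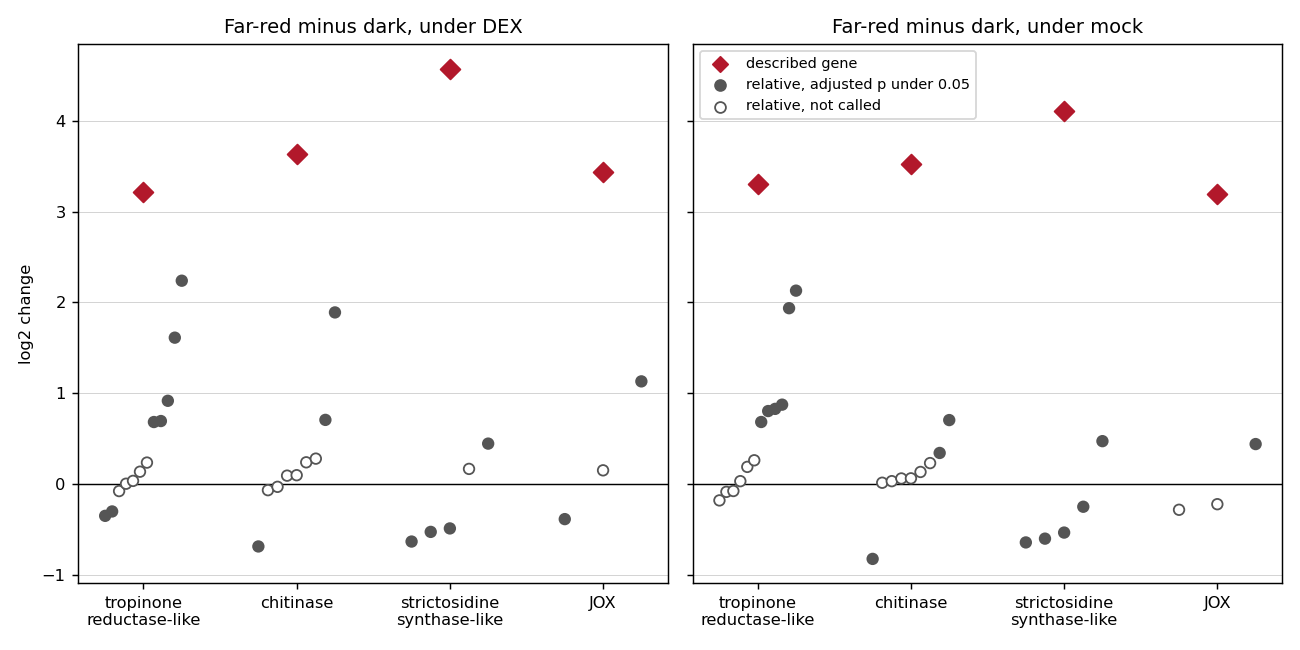
Log2 change in far-red minus dark under DEX (left) and under mock (right) for the measured relatives of AT2G29360 (12), AT2G43620 (9), AT3G57020 (5) and JRG21 (3). Circles are relatives, filled where the adjusted p was under 0.05, and diamonds are the described genes, which were chosen for this change and lie above all of their relatives.

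The chitinase relatives of AT2G43620 were called about as often as all probe sets. Of 9 measured, 2 rose and 1 fell in far-red under mock (median 0.06), and the same counts were found under DEX (median 0.10), with no gene called higher in both. CHI rose by 0.70 ± 0.11 under mock (limma adjusted p = 3.93e-05) and AT2G43600 by 0.34 ± 0.09 (0.00499). AT2G43600 was dim, at 4.40 in far-red mock and 4.06 in dark mock. AT1G02360 fell by 0.83 under mock (SE 0.09, limma adjusted p = 1.59e-07) and by 0.69 under DEX (1.6e-06). With DEX in dark 2 of the 9 fell, against 3.56% of all probe sets, AT2G43590 and AT3G47540, both named after their values were seen. AT2G43590 stood at 8.12 in far-red DEX, 7.93 in far-red mock, 6.23 in dark DEX and 7.87 in dark mock. It rose in far-red against dark under DEX by 1.89 ± 0.13 (limma adjusted p = 2.56e-10), with 0.06 ± 0.13 under mock, and fell by 1.65 with DEX in dark (SE 0.13, limma adjusted p = 4.31e-08). AT3G47540 likewise rose in far-red under DEX, by 0.71 ± 0.10 (limma adjusted p = 3.38e-06), with 0.03 ± 0.10 under mock, and fell by 0.41 with DEX in dark (limma adjusted p = 0.00952). AT2G43620 itself had a dark DEX change of -0.06.

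Among 5 measured strictosidine synthase-like relatives of AT3G57020, 1 rose and 4 fell in far-red under mock (median -0.54), and 1 rose and 3 fell under DEX (median -0.49). AT3G57030 was the one that rose, by 0.47 ± 0.07 under mock (limma adjusted p = 1.68e-05) and 0.44 ± 0.07 under DEX (3e-05). AT1G74010 had a log2 change of -0.64 ± 0.11 (limma adjusted p = 5.02e-05), AT3G51440 of -0.60 ± 0.09 (2.34e-05) and AT3G57010 of -0.54 ± 0.11 (0.00051). The remaining fall under mock was AT3G51450 at -0.25 ± 0.08 (limma adjusted p = 0.0157), named after its values were seen. It was not called without far-red mock replicate 3 (0.0769), and its change under DEX was 0.17 ± 0.08 (limma adjusted p = 0.113).

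The other jasmonate oxidase genes of the JOX group were all 3 measured. AT2G38240 rose in far-red, by 1.13 ± 0.12 under DEX (limma adjusted p = 1e-07) and by 0.44 ± 0.12 under mock (limma adjusted p = 0.00509). AT5G05600 (-0.22 ± 0.13, limma adjusted p = 0.194) and AT3G11180 (-0.29 ± 0.13, limma adjusted p = 0.106) were not called under mock. Under DEX AT3G11180 fell by 0.39 (limma adjusted p = 0.026, but 0.117 without dark DEX replicate 4). Its signals were dim, 3.94 in far-red DEX and 4.33 in dark DEX. None of the 3 was called for DEX in far-red or in dark.

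Wider jasmonate genes could be followed only in part. Of 14 genes listed as jasmonate-responsive, 5 were measured, of which 2 were called under mock, both higher in far-red light (median change 0.20). The thionin gene THI2.2 rose by 3.01 ± 0.11 (limma adjusted p = 1.27e-14), and the defensin gene PDF1.2 by 0.25 ± 0.07 (0.00574). The signals of PDF1.2, 4.29 in far-red mock and 4.04 in dark mock, were dim, below the lower quartile of the arrays. AT1G54020 (0.20 ± 0.08, limma adjusted p = 0.0566) and PDF1.2b (-0.14 ± 0.11, limma adjusted p = 0.356), whose probe set matches several transcripts, were not called. Under DEX 1 of the 5 rose, THI2.2 by 3.24 ± 0.11 (limma adjusted p = 3.77e-15). The transcription factor genes MYC3 and MYC4, the only 2 measured of 24 listed for jasmonate signalling and turnover, fell under mock by 0.39 (SE 0.10, limma adjusted p = 0.00414) and by 0.30 (SE 0.10, limma adjusted p = 0.02, but 0.0976 without far-red mock replicate 3). Neither was called under DEX. OPCL1, a ligase of jasmonate synthesis and the 1 gene measured of 18, had a change of -0.11 ± 0.15 under mock (limma adjusted p = 0.647) and rose by 0.48 ± 0.15 under DEX (limma adjusted p = 0.016, but 0.0559 without far-red DEX replicate 3).

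Of other lists, the 3 measured phenylpropanoid and flavonoid genes of 16 had 1 that rose in far-red under mock, UGT78D2, a flavonoid glucosyltransferase gene (0.75 ± 0.08, limma adjusted p = 2.53e-07). DFR (0.28 ± 0.11, limma adjusted p = 0.0618) and UF3GT (0.10 ± 0.11, limma adjusted p = 0.539) were not called. UGT74B1, a glucosyltransferase gene of glucosinolate synthesis and the 1 measured of 17, fell by 1.02 (SE 0.08, limma adjusted p = 9.8e-10). Of 21 loci listed for salicylate and pathogenesis only 1 was measured, whose place on the list is doubtful, so that pathway is not described.

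The genes next to each member in the genome were examined too, 2 protein-coding genes on either side, in the order of the reference annotation. Of the 32 neighbours 19 were measured. In far-red against dark under mock 8 rose and 4 fell (median 0.16), and under DEX 5 rose and 5 fell (median 0.08). Of all probe sets 17.8% rose and 20.8% fell under mock, and 17.5% rose and 22.2% fell under DEX. Beside AT2G29360, its relatives AT2G29340 and AT2G29370 both rose under mock, AT2G29370 by 0.68 ± 0.10 (limma adjusted p = 1.97e-05). Beside AT3G57020, its relatives AT3G57010 and AT3G57030 went in opposite directions, as given above. AT1G51110, which lies 2 genes from AT1G51090, rose by 2.39 ± 0.09 (limma adjusted p = 1.84e-14) under mock, where AT1G51090 changed by 1.08, and by 2.27 under DEX, where AT1G51090 changed by 2.26. The gene between them, CRR41, had -0.23 ± 0.12 under mock (limma adjusted p = 0.137). AT1G65510, 2 genes from AT1G65490, fell by 1.41 (SE 0.12, limma adjusted p = 7.1e-09), and AT1G65500 between them had -0.003 ± 0.11 (limma adjusted p = 0.987). Around the chitinase gene AT2G43620 the 3 neighbours called under mock rose by 0.26 to 0.34.

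**Figure D4:**
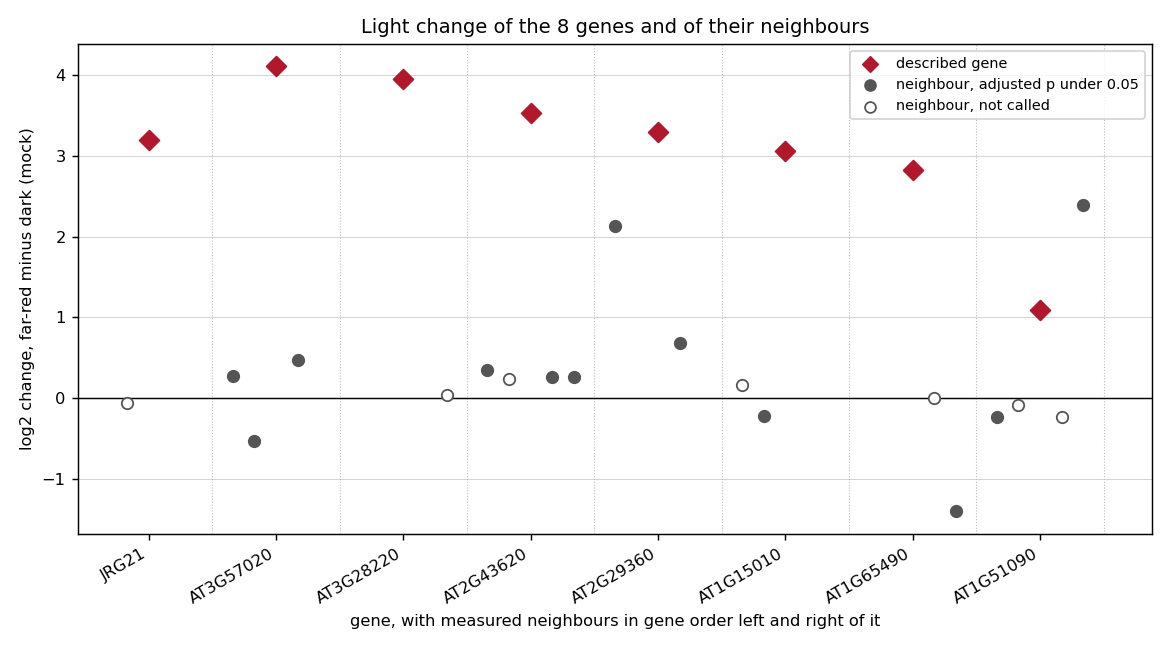
Log2 change in far-red minus dark under mock for the 8 genes (diamonds) and their measured neighbours in gene order (circles, up to 2 on either side, filled where the adjusted p was under 0.05). AT2G29340 beside AT2G29360 (2.13) and AT1G51110 beside AT1G51090 (2.39) are the neighbours with large rises, and AT1G65510 beside AT1G65490 (-1.41) the one with a large fall.

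With DEX in far-red none of the 19 neighbours was called, where only 1.04% of all probe sets were, so nothing is read from that count. Beside AT1G51090 and AT1G15010 the changes of the neighbours ran from -0.03 to 0.04 and from -0.09 to 0.21. With DEX in dark 1 rose, where 2.34% of all probe sets did. It was scpl50 beside AT1G15010, by 0.33 ± 0.08 (limma adjusted p = 0.0173), opposite in sign to AT1G15010. Leaving out dark DEX replicate 1 (limma adjusted p = 0.0664) or 2 (0.0647), or else replicate 1 of dark mock (0.0662), ended that call.

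For each gene the 2 others with the most similar profile over the 16 arrays were found by Pearson correlation among the 13286 genes. These correlations are dominated by the gap between far-red and dark arrays, and the arrays share one normalisation, so the values within the 8 far-red and the 8 dark arrays are given beside them. Each of these sets mixes DEX and mock arrays, so its values still hold any gap between DEX and mock. Correlations of the deviations from group means leave that gap out. They ran from -0.12 (AT3G28220 with COR15A) to 0.79 (AT1G15010 with AT5G62360), with 0.50 for JRG21 with COR15A. COR15A, a cold- and light-responsive gene, was among the 2 closest for JRG21 (r = 0.996 over 16 arrays, 0.755 in far-red, 0.470 in dark), AT3G28220 (0.995, 0.840 and -0.345) and AT2G43620 (0.994, 0.353 and 0.332). JRG21 and AT3G28220 were close to each other (0.995 over 16 arrays, 0.802 in far-red, -0.073 in dark). In dark DEX and dark mock the means of JRG21 (3.73 and 3.71) and COR15A (4.35 and 4.34) were dim, below the lower quartile of the arrays. Correlations in dark, and of deviations, that involve these genes may therefore partly compare background. HYH, a bZIP transcription factor gene of light signalling, was close to AT2G29360 (0.994, 0.823 and 0.543), as was AT1G51110 (0.994, 0.795 and 0.492).

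AT1G15010 was closest to AT4G18650 (0.995 over 16 arrays, 0.895 in far-red, 0.888 in dark) and AT5G62360 (0.993, 0.947 and 0.753), for which the likeness held inside each light as well. Their profiles had the same order of groups: AT4G18650 stood at 9.84 in far-red DEX, 9.41 in far-red mock, 7.45 in dark DEX and 7.68 in dark mock. AT3G57020 was closest to AT1G54740 (0.996, 0.772 and 0.733) and AT5G16010 (0.994, -0.264 and 0.567). AT1G65490 was closest to AT3G48420 (0.995, -0.092 and 0.878) and AT2G18370 (0.993, 0.317 and 0.743). AT1G51090 had no gene above 0.966, the value for AT5G42570 (0.934 in far-red, 0.312 in dark), followed by AT2G21510 (0.964, 0.946 and 0.508). AT2G43620 was closest to AT4G32590 (0.994, 0.536 and 0.486).

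Inside the groups the 8 genes varied together only loosely. Deviations from the group means over the 16 arrays correlated between -0.29 and 0.62 over the 28 pairs, with a median of 0.23, highest for AT3G57020 with AT1G15010. Far-red mock replicate 3 was the lowest of its 4 arrays for 6 of the 8 genes, with a mean deviation of -0.20, and far-red mock replicate 4 was the highest for 4 of them.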

How the data were processed

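RNA was measured on Affymetrix ATH1 arrays, 1 per sample, in 16 samples. The authors deposited 1 log2 signal for each probe set and array, and the submitters' processing notes name RMA and affy, without versions. Settings and probe set definitions are not given in the sources. Such normalisation would hide a shift shared by all transcripts. Titles gave the groups and the replicate numbers, and 0 columns were left unused. The titles call the replicates biological; whether they came from separate sowings is not stated, so p-values measure the spread between these samples.

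Of 22810 probe sets, 64 controls were left out and 22746 tested. Of these, 13513 are paired with 1 gene, 503 with several and 8730 are unnamed here; 13436 matched the RefSeq table of TAIR10.1, used for names and gene order only, giving 13286 genes. The brightest single-gene probe set stood for a gene. A mean per group was fitted over all 16 arrays with limma 3.58.1 in R 4.3.3 (lmFit, eBayes), giving 19.65 degrees of freedom. Tests were two-sided, with Benjamini and Hochberg adjustment over all probe sets and a gene was called at an adjusted value below 0.05. Adjusted p-values come from this fit unless a setting is named. The fit was tested on simulated data. The number of arrays limits the precision.

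The 8 genes and the lists were chosen with earlier results of these data known. The 9 lists of pathways and tissues hold 160 loci, 30 of them measured; 3 family lists (40 loci, 26 measured) were written from memory after the files had been opened, because the reference holds no product names. Genes were named by rule: the 8, the 2 most similar to each, their neighbours, and up to 4 of each list with the smallest p in far-red against dark under mock. Other names are marked as chosen after their values were seen. The 3 called root markers are named as the count they form, and the genes that fill the ranking of the largest light rises as part of that ranking. Alternatives were the groups in the fit, normalisation, variance prior, dim probe sets, array weights, a replicate block and each array left out. No sequence is shown.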

Additional observations from a re-analysis of the deposited data

Results flagged for a closer look

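The highest dark mock array of AT2G43620, replicate 4 with a log2 signal of 5.63, lay apart from the other dark mock arrays, of which the nearest was at 5.08. Its gap took 0.843 of the group's range, above Dixon's critical value for 4 arrays. This was 1 of 32 groups examined, and chance alone marks about 1 in 20. Leaving that array out gave a dark DEX change of 0.09 for AT2G43620, against -0.06 with it, neither of them called.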

How the results depend on the processing

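The number of the 8 genes called for DEX in dark, 2 with all arrays, was 1 with only the 2 groups compared, and it ran from 1 to 3 when single dark arrays were left out. The cause was not tested, beyond the fewer arrays in these fits. All but 1 of the settings with fewer calls lost AT1G15010, and the remaining one lost AT1G65490, as given above. The number of called probe sets stayed within 1.5 times its main value under all settings for each comparison: 8008 to 9003 for light under mock, 8286 to 9528 for light under DEX, 161 to 302 for DEX in far-red and 1065 to 1510 for DEX in dark. The log2 changes of the 8 genes with light, and with DEX in far-red, moved under every setting run by less than the larger SD of the 2 groups compared. Some moved by more than the smaller SD. No called change of the named genes turned its direction. The array weights gave 3 of the 8 called for DEX in dark. The replicate block, for arrays that share only a number, gave 8919, 9095, 236 and 1412 calls in these comparisons and kept both calls in dark (limma adjusted p = 0.00906 for AT1G15010 and 0.0142 for AT1G65490); same-numbered arrays did not deviate together (7 of 24 pairs above 0.1, range -0.15 to 0.32), and in 15 of 48 comparisons an array correlated best with its own number. No gene of the 8 has several single-gene probe sets, so that alternative gave no value. The files hold no background or detection call, so dim signals such as those of JRG21 in dark limit the folds.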
